A study of Mus musculus with 24 samples.

Results

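Vascular endothelial growth factors (VEGFs) and angiopoietins are the secreted proteins that build and stabilise blood vessels, and the 9 genes described here encode 5 of them and 4 of their receptors. They were taken from a table of RSEM expected counts by gene symbol (Vegfa, Vegfb, Vegfc, Kdr, Flt1, Nrp1, Nrp2, Angpt1 and Angpt2), 9 of 51912 genes, and each symbol matched 1 row. The counts come from RNA of whole mouse lungs, 24 libraries in 6 groups of 4, taken from Sin3a conditional knockout (CKO) and control mice before birth (embryonic day 16, E16), at birth (postnatal day 0, P0) and 3 days later (P3). The protein SIN3A holds histone deacetylases in a complex that represses transcription.

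All 6 groups carried the transgenes Tbx4rtta and tetocre by their titles, so that doxycycline, fed to the pregnant dams at E12, turns on Cre where the Tbx4 element drives the transactivator, in lung mesenchyme. CKO lungs were Sin3a F/F at every stage. Control lungs were Sin3a F/+ at E16 and P0, and Sin3a F/F at P3, where by title they have the genotype of CKO lungs, so the P3 groups rest on the words control and CKO alone. The titles call the 4 lungs of a group biological replicates. The labels describe library making by stage and give no preparation date or batch, so stage and any preparation batch cannot be told apart. Total Sin3a counts did not part the genotypes (85.9 to 144 CPM over the CKO libraries, 85.6 to 141 CPM over the control libraries, where CPM is counts per M counts of the library). Such counts can cover exons outside any deleted stretch and cells without Cre. How far Sin3a was deleted was not tested, so these counts check no label.

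VEGF-A is made in the developing lung largely by epithelial cells, alveolar type 1 cells in particular, and acts on endothelial cells through the receptor kinases KDR (VEGFR2), which carries most of its signal, and FLT1 (VEGFR1), which binds it tightly and limits how much reaches KDR. VEGF-B binds FLT1 alone of these kinases, and VEGF-C acts on lymphatic vessels through FLT4 and also on KDR. The neuropilins NRP1 and NRP2 are co-receptors shared with class 3 semaphorins. Angiopoietin-1, made by mesenchymal and perivascular cells, activates the endothelial kinase TEK (TIE2) and quiets vessels, and angiopoietin-2, made by endothelial cells, opposes it in many settings.

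Because Vegfa, Kdr and Flt1 had the highest levels or the largest change between stages, the 250 bases before their starts are printed here from the RefSeq promoter table for GRCm38.p6 (mm10), where 7 of the 9 genes had an entry. All 3 lie on the minus strand and are given 5′ to 3′ along the gene: the Vegfa window is chr17:46032378-46032627, the Kdr window chr5:75978456-75978705 and the Flt1 window chr5:147726012-147726261. Capitals mark the GC box GGGCGG (read on the gene's strand or, as CCGCCC, on the other) and the cyclic AMP response element TGACGTCA, which do not overlap in these windows.
Vegfa: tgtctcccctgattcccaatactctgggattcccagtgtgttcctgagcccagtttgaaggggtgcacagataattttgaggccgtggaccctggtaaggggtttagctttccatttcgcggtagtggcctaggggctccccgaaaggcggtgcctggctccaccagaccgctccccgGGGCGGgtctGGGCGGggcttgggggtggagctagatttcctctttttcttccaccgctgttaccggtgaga
Kdr: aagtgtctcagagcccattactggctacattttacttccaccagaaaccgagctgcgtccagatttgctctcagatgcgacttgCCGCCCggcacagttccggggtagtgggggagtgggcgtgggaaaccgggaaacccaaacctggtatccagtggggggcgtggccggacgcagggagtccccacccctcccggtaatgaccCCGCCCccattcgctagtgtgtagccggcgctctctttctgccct
Flt1: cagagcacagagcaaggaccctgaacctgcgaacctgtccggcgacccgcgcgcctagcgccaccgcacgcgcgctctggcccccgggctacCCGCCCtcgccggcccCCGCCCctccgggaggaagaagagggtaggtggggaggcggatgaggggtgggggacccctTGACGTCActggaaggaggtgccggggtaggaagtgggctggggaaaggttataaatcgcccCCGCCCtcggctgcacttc
The GC box occurred 2 times before Vegfa, 2 times before Kdr and 3 times before Flt1, and at least 1 time in 7 of the 7 windows matched. Of all 32851 promoter windows of 250 bases, 32.7% hold it. The response element TGACGTCA was found before Flt1, at 81 to 74 bases from the start, and before none of the other 6 genes, while 1.5% of all windows hold it. One form of the core of the hypoxia response element, ACGTG, searched on both strands, was in none of the 7 windows and in 16.6% of all windows. The other form, GCGTG, was not searched or counted. Its letters occur in the printed Kdr window and, as CACGC for the other strand, in the printed Flt1 window, so these windows are not without such a core. These matches describe the letters of the window and show no binding.

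Vegfa lies on chromosome 17 from 46016993 to 46032369 on the minus strand (mm10), and Kdr and Flt1 on chromosome 5 from 75932827 to 75978458 and from 147561604 to 147726011, both on the minus strand. Nrp1 (128358604 to 128503363, plus strand), Vegfc (54077606 to 54187096, plus strand) and Angpt2 (18690263 to 18741562, minus strand) share chromosome 8. Vegfb lies on chromosome 19 from 6982473 to 6987651 on the minus strand, Nrp2 on chromosome 1 from 62703285 to 62818695 on the plus strand, and Angpt1 on chromosome 15 from 42424723 to 42676977 on the minus strand. Angpt1 shares 737 exon bases with the predicted gene Gm17473 on the opposite strand, whose median count was 2.5. Nrp1 shares 80 with Mir1903 on the same strand (median count 0). With 0 shared exon bases, Angpt2 overlaps Mcph1 on the opposite strand (median count 539.5) and Nrp2 overlaps Gm37121 on the same strand (54.5). Whether reads of these genes entered the counts was not tested. Whether counting used the strand is not given in the sources used here.

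Totals ran from 27.02 to 36.35 M counts per library, and each of the 9 genes passed the filter on low counts in every comparison. In 2 of the P0 libraries thymus markers were high, with a mean log2 CPM of 5.77 in CKO replicate 1 and 6.19 in control replicate 3, against -0.66 or less in the other P0 libraries. Cartilage markers were high in P0 CKO replicate 3 (3.79 mean log2 CPM). The P0 libraries varied most, with a common biological coefficient of variation of 0.389, against 0.215 at E16 and 0.188 at P3. More than 100 CPM of Xist, made in female cells, were found in 4 CKO and 1 control libraries at E16, in 2 CKO and 3 control libraries at P0, and in 2 CKO and 1 control libraries at P3. In P3 CKO replicate 1 the summed endothelial level was 3816 CPM, against 2342 to 3114 CPM in the other 3 CKO libraries, and that of alveolar type 1 markers was 4282 against 2913 to 3409 CPM. Without both libraries high in thymus markers no call on the 9 genes changed, and 14 of 60 values moved by over 1.5 times or turned sign.

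Per kb of merged exons, Vegfa was the most abundant of the 9 genes in all 6 groups, Kdr came next and Nrp1 after it, while Angpt2 was lowest. At E16 Vegfa stood at 50.8 ± 9.77 CPM per kb in CKO and 58.0 ± 6.24 in control lungs (SD, n = 4 each), at P0 at 133 ± 26.3 and 167 ± 50.2, and at P3 at 129 ± 42.9 and 139.8 ± 20.4. Kdr stood at 30.4 ± 6.05 in CKO and 33.8 ± 5.56 CPM per kb in control lungs at E16, and at 65.2 ± 13.3 and 77.3 ± 4.08 at P3. The ranges of Vegfa and Kdr did not overlap in any group, and those of Kdr and Nrp1 overlapped only in E16 CKO lungs. Flt1 moved up the order, being below Angpt1, Vegfb and Vegfc at E16 (4.22 ± 0.789 CPM per kb in CKO and 4.89 ± 0.651 in control lungs) and above both Vegfb and Vegfc at P3 (11.9 ± 1.90 and 12.3 ± 0.523). The ranges of Flt1 and Vegfc overlapped at E16. This order between genes depends on the merged exon lengths, 13504 bases for Flt1, 9030 for Kdr, 4285 for Vegfa and 1605 for Vegfb. In mean CPM, not divided by length, Kdr was above Vegfa in E16 control lungs (305 against 248). Flt1 was there above Angpt1, Vegfb and Vegfc (66.1 against 47.1, 12.3 and 13.2). In the middle of the order at P0, the ranges of Flt1, Vegfc, Vegfb and Angpt1 overlapped in CKO lungs, so their places cannot be told apart.

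**Figure D1:**
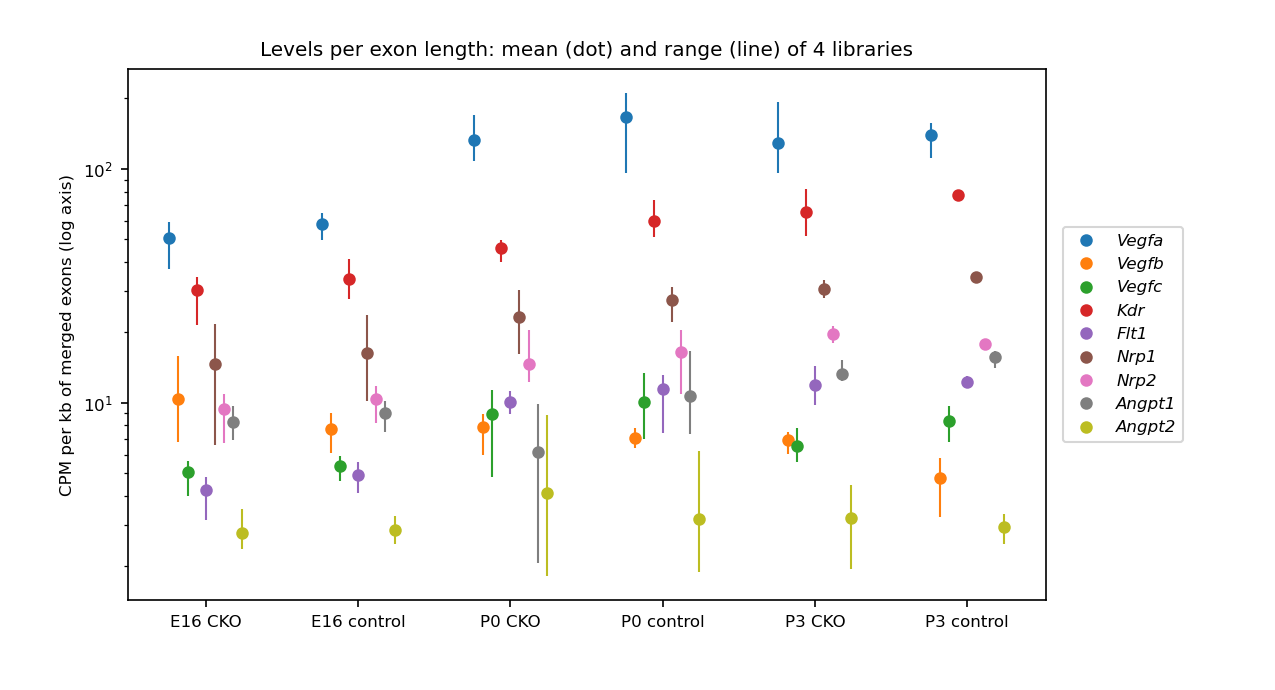
Levels of the 9 genes in CPM per kb of merged exons (log axis) in the 6 groups, CKO left of control at each stage. Dots are means and lines the range of 4 libraries; Vegfa is above Kdr in each group and Angpt2 is lowest.

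Between E16 and birth most VEGF ligand and receptor genes rose in both genotypes. Vegfa, Vegfc, Kdr, Flt1, Nrp1 and Nrp2, 6 of the 9 genes, were higher at P0 than at E16 in CKO lungs, where 24.7% of the 18415 genes tested were called higher, and the same 6 were higher in control lungs, where 25.3% were. Vegfb, Angpt1 and Angpt2 did not pass in either genotype. A call is an adjusted p under 0.05 (quasi-likelihood test of edgeR, p adjusted by Benjamini-Hochberg over all genes), here in one fit of the 24 libraries. The libraries of both stages did not overlap for 4 of the 9 genes in CKO lungs (34.6% of all genes) and for 4 in control lungs (41%).

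Vegfa had the largest increase. At E16 it was 159, 255, 218 and 239 CPM in CKO lungs, against 249, 213, 254 and 278 CPM in control lungs. At P0 the Vegfa level was 461, 525, 563 and 726 CPM in CKO lungs, against 729, 903, 411 and 819 CPM in control lungs. At P3 there were 824, 479, 503 and 412 CPM in CKO lungs, against 671, 477, 598 and 651 CPM in control lungs. Every P0 library was above every E16 library of its genotype, and CKO and control ranges overlapped at each stage. The log2 change from P0 over E16 was 1.40 ± 0.23 (SE; edgeR adjusted p = 3.76e-05) in CKO lungs and 1.52 ± 0.23 (adjusted p = 1.56e-05) in control lungs. P3 over P0 was not called, with log2 changes of -0.05 ± 0.22 in CKO and -0.25 ± 0.22 in control lungs, and -0.14 and -0.45 without both libraries high in thymus markers. The Vegfa change between genotypes was -0.19 ± 0.14 (E16), -0.32 ± 0.25 (P0) and -0.12 ± 0.20 (P3), none of them called (adjusted p = 0.687, 0.955 and 0.818, edgeR). With a library left out it ran from -0.28 to -0.08 at E16, from -0.51 to -0.20 at P0 and from -0.38 (without P3 CKO replicate 1, adjusted p = 0.0637) to -0.01 (without P3 CKO replicate 4) at P3.

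The decoy receptor gene Flt1 also rose between E16 and P0 in both genotypes. Its E16 level was 55.8, 65.1, 42.4 and 64.8 CPM in CKO lungs, against 62.5, 55.5, 75.2 and 71.0 CPM in control lungs. At P0, Flt1 was 121, 141, 151 and 133 CPM in CKO lungs, against 178, 171, 99.9 and 171 CPM in control lungs. At P3, Flt1 was 194, 166, 153 and 132 CPM in CKO lungs, against 163, 160.2, 176 and 164 CPM in control lungs. Control replicate 3, the P0 control library high in thymus markers, was the lowest of its group and still above all E16 libraries. Flt1 rose by 1.27 ± 0.17 log2 in CKO lungs and 1.22 ± 0.16 in control lungs at P0 over E16 (edgeR adjusted p = 2.48e-06 and 4.20e-06), with no overlap between the stages. P3 over P0 was not called for Flt1 (0.22 ± 0.16 in CKO, 0.10 ± 0.16 in control lungs). The genotypes overlapped at all 3 stages, and the 95% interval of the Flt1 change at P3, -0.29 to 0.18, was the narrowest of the 3 stages.

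Kdr, the main signalling receptor, was higher at P0 than at E16 and had its highest means at P3. At E16, Kdr was 307, 286, 194 and 310.3 CPM in CKO lungs, against 289.9, 250.4, 310.0 and 371 CPM in control lungs. At P0, Kdr was 450.1, 407, 359.9 and 445 CPM in CKO lungs, against 495, 532, 462 and 665 CPM in control lungs. At P3, Kdr was 739, 526, 625 and 466 CPM in CKO lungs, against 662, 726, 734 and 671 CPM in control lungs. All 4 P0 control libraries were above all 4 P0 CKO libraries, and at P3 the CKO libraries were spread on either side of the narrow control range. Over E16, Kdr at P0 was 0.62 ± 0.16 log2 higher in CKO lungs and 0.81 ± 0.16 higher in control lungs (edgeR adjusted p = 0.00353 and 0.000322). For P3 over P0 the change was 0.48 ± 0.16 in CKO lungs, just short of a call (adjusted p = 0.0502), and 0.38 ± 0.16 in control lungs (adjusted p = 0.121). The P3 over P0 change in CKO lungs was called under 6 of 10 other settings, with adjusted p between 0.0211 and 0.112 over them. In the main fit 13% of all genes were called, and the shares under the other settings are not given here.

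The number of Vegfa counts per Kdr count, both per kb, gives ligand relative to receptor in each library. Its size depends on the exon lengths used, while its comparison between libraries does not. At E16 the ratio was 1.09, 1.88, 2.37 and 1.62 in CKO lungs and 1.81, 1.79, 1.72 and 1.58 in control lungs. At P0 it was 2.16, 2.72, 3.30 and 3.43 in CKO lungs and 3.10, 3.58, 1.87 and 2.60 in control lungs. At P3 the ratio was 2.35, 1.92, 1.70 and 1.87 in CKO lungs and 2.13, 1.38, 1.72 and 2.05 in control lungs. Medians were therefore highest at P0 in both genotypes, 3.01 and 2.85, and the genotypes overlapped at each stage. Flt1 per Kdr, decoy relative to signalling receptor, likewise had its highest medians at P0, 0.215 in CKO lungs and 0.193 in control lungs, against 0.143 and 0.146 at E16.

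The co-receptor Nrp1 varied widely at E16, where it was 213, 152, 64.7 and 143 CPM in CKO lungs, against 132, 99.9, 173 and 233 CPM in control lungs. At P0, Nrp1 was 159, 269, 298 and 184 CPM in CKO lungs, against 304, 281, 218 and 269 CPM in control lungs. At P3, Nrp1 was 308, 293, 327 and 276 CPM in CKO lungs, against 329, 332, 344 and 340.0 CPM in control lungs. The spread closed toward P3, where the lowest control library lay just above the highest CKO library. Nrp1 at P0 over E16 was 0.68 ± 0.26 in CKO lungs and 0.74 ± 0.27 in control lungs (edgeR adjusted p = 0.0401 and 0.0255), and stages overlapped in both. This was the weakest of the calls: in CKO lungs it passed under 5 of 10 other settings and in 18 of 24 fits that left out a library (adjusted p up to 0.16 and 0.133), and in control lungs it passed under all 10 settings and in 20 of the 24 fits (up to 0.0974). The calls in CKO lungs were lost without E16 CKO replicates 2, 3 or 4, P0 CKO replicates 2 or 3 or P0 control replicate 1, and those in control lungs without E16 control replicates 1 or 2 or P0 control replicates 1 or 2.

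Nrp2, the co-receptor that also serves lymphatic VEGF-C signalling, was higher at P0 than at E16 as well. At E16, Nrp2 was 124, 129, 79.7 and 114 CPM in CKO lungs, against 122, 97.1, 132 and 139 CPM in control lungs. At P0, Nrp2 was 145, 243, 157 and 149 CPM in CKO lungs, against 242, 195, 129 and 212 CPM in control lungs. At P3, Nrp2 was 224, 252, 239 and 214 CPM in CKO lungs, against 220.4, 206, 216 and 202 CPM in control lungs. CKO replicate 2 at P0 stood far above the other 3 CKO libraries, at the level of the highest control library. Its log2 change at P0 over E16 was 0.66 ± 0.18 in CKO and 0.65 ± 0.18 in control lungs (edgeR adjusted p = 0.00586 and 0.00564).

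Vegfc, the lymphatic growth factor, was 9.77, 12.4, 13.9 and 13.8 CPM in CKO lungs, against 14.4, 12.3, 14.6 and 11.4 CPM in control lungs at E16. At P0, Vegfc was 22.4, 11.8, 26.0 and 27.7 CPM in CKO lungs, against 17.1, 32.9, 18.1 and 30.9 CPM in control lungs. At P3, Vegfc was 19.1, 14.5, 16.6 and 13.7 CPM in CKO lungs, against 16.7, 23.0, 23.6 and 18.3 CPM in control lungs. P0 CKO replicate 2 alone among the P0 libraries lay within the E16 range. Vegfc at P0 over E16 was 0.84 ± 0.24 log2 higher in CKO lungs and 0.90 ± 0.24 higher in control lungs (edgeR adjusted p = 0.00637 and 0.00349). Its P3 level in CKO lungs was -0.37 ± 0.15 log2 relative to control lungs, with an unadjusted p of 0.0346 and an adjusted p of 0.294 by edgeR.

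**Figure D2:**
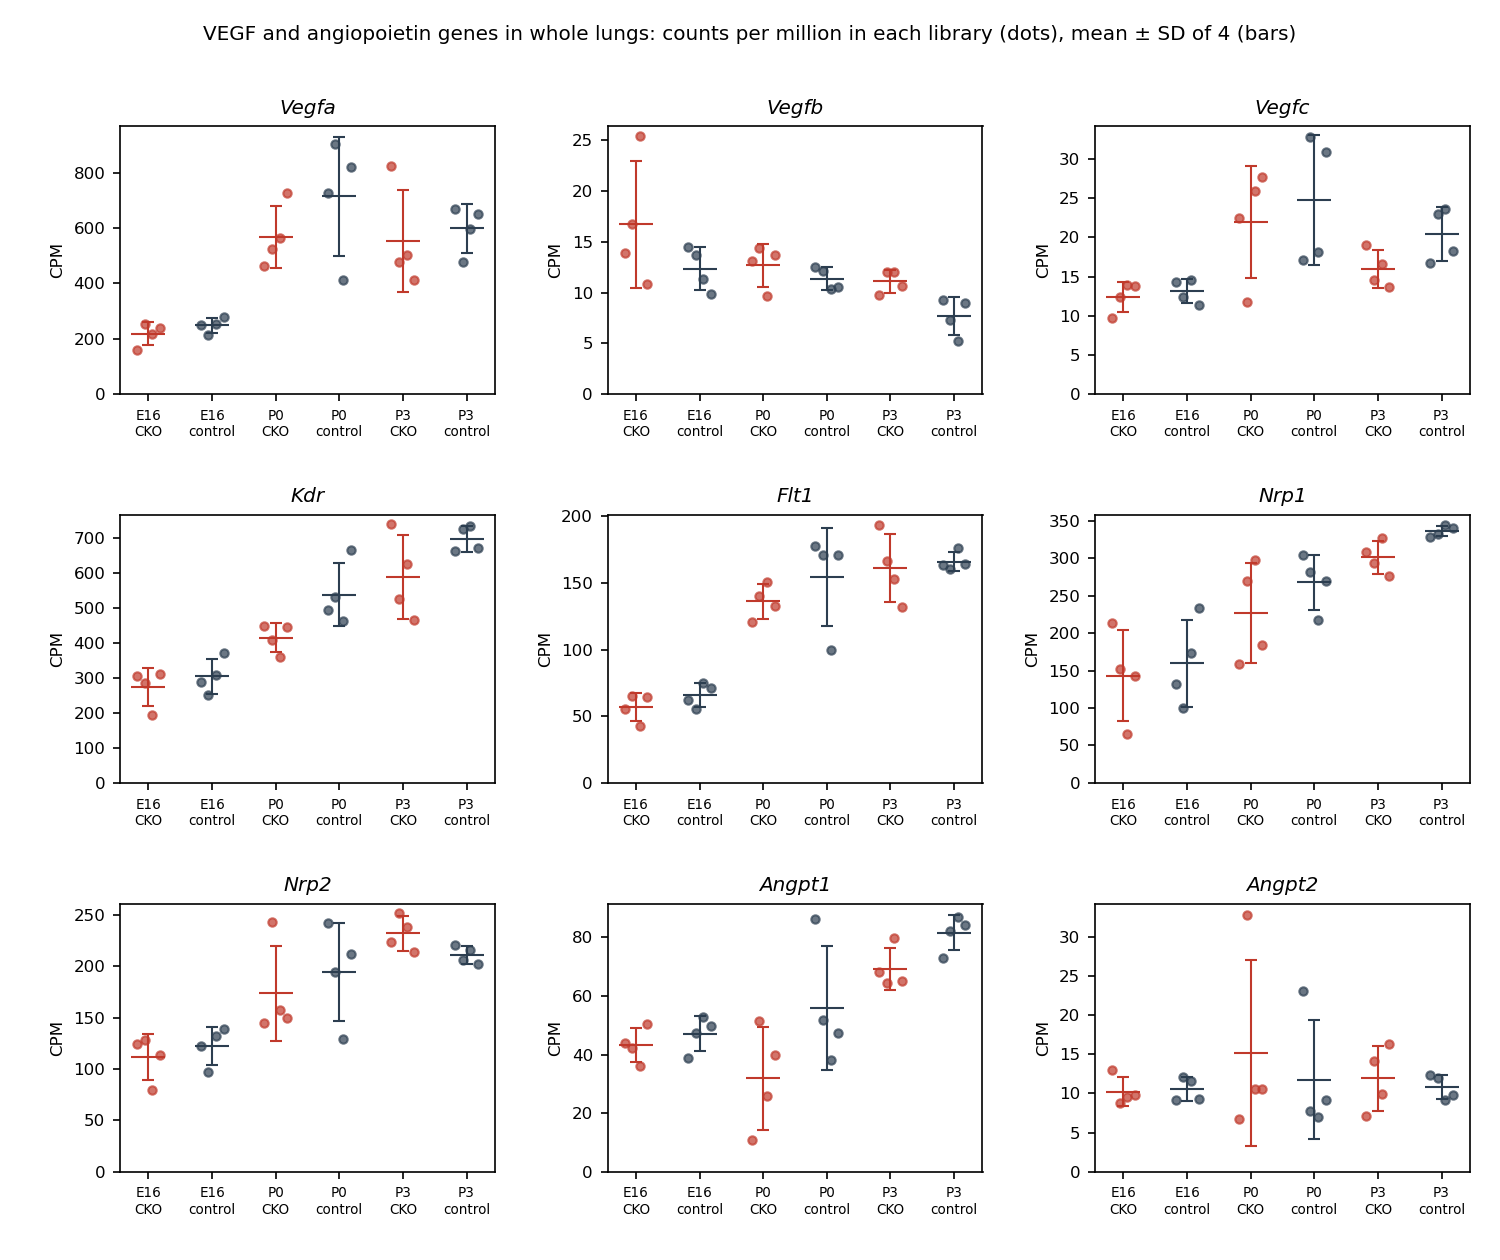
CPM of the 9 genes in each library (dots) with the mean and SD of 4 (bars), CKO left of control at E16, P0 and P3. Vegfa and Flt1 are higher at P0 than at E16 in both genotypes, while Angpt1 in P0 CKO lungs spreads from 10.7 to 51.3 CPM.

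Angpt1, the ligand that activates TEK, followed another course. At E16, Angpt1 was 43.8, 42.3, 36.2 and 50.4 CPM in CKO lungs, against 38.9, 47.2, 52.7 and 49.6 CPM in control lungs. At P0, Angpt1 was 10.7, 51.3, 26.0 and 39.9 CPM in CKO lungs, against 86.3, 51.6, 38.1 and 47.3 CPM in control lungs. At P3, Angpt1 was 68.0, 64.3, 79.6 and 65.0 CPM in CKO lungs, against 73.1, 82.3, 87.0 and 84.1 CPM in control lungs. The lowest Angpt1 value of all 24 libraries was in P0 CKO replicate 1, one of the libraries high in thymus markers, and the genotypes overlapped at each stage. P0 over E16 was not called for Angpt1 in CKO lungs (-0.42 ± 0.30, adjusted p = 0.262) or control lungs (0.24 ± 0.29, adjusted p = 0.534, edgeR). In CKO lungs this change was -0.13 without both libraries high in thymus markers, and without P0 CKO replicate 2 it was -0.75 and called (adjusted p = 0.0424), as were 44.1% of all genes. From birth to P3 Angpt1 was the one gene of the 9 that was called. It rose by 1.09 ± 0.30 log2 in CKO lungs (edgeR adjusted p = 0.0203), where 13% of all genes were called and 6.15% called higher. All 4 P3 CKO libraries were above all 4 P0 CKO libraries, and 15.6% of all genes had no overlap there in either direction. In control lungs the P3 over P0 change of Angpt1 was 0.55 ± 0.29 (adjusted p = 0.224). The call in CKO lungs was lost when the 2 groups were fitted alone (adjusted p = 0.121) and without P3 CKO replicate 3 (adjusted p = 0.0609), and it was kept with both libraries high in thymus markers left out, at 0.81 log2 (adjusted p = 0.0164, 11.3% of all genes called). Adjusted p ranged from 0.00346 to 0.121 over 10 other settings.

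Angpt2, the endothelial antagonist, had no called change between stages. At E16, Angpt2 was 12.9, 8.77, 9.51 and 9.76 CPM in CKO lungs, against 9.16, 12.1, 11.6 and 9.26 CPM in control lungs. At P0, Angpt2 was 6.69, 32.7, 10.6 and 10.5 CPM in CKO lungs, against 23.1, 7.71, 7.00 and 9.20 CPM in control lungs. At P3, Angpt2 was 7.18, 14.1, 9.99 and 16.3 CPM in CKO lungs, against 12.3, 12, 9.14 and 9.83 CPM in control lungs. At P0 a single library of each genotype, CKO replicate 2 and control replicate 1, stood far above the rest, and both carry the identifier prefix 9903 in the labels. Without P0 CKO replicate 2 the P0 genotype change of Angpt2 was -0.36 in place of 0.36 log2.

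The number of Angpt1 counts per Angpt2 count, both per kb, was 2.40, 3.42, 2.70 and 3.66 in CKO lungs and 3.01, 2.76, 3.21 and 3.80 in control lungs at E16. At P0 it was 1.13, 1.11, 1.74 and 2.69 in CKO lungs and 2.65, 4.75, 3.86 and 3.64 in control lungs. At P3 the ratio was 6.71, 3.22, 5.65 and 2.82 in CKO lungs and 4.20, 4.86, 6.75 and 6.06 in control lungs. At P0, 3 of the 4 CKO libraries were below every control library and the highest CKO library was above the lowest control library. The ratio was not tested.

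Vegfb, the FLT1 ligand known mostly from heart and fat, had the lowest level per kb of the 3 VEGF ligands in P3 control lungs. At E16, Vegfb was 13.9, 16.7, 25.4 and 10.9 CPM in CKO lungs, against 14.5, 13.7, 11.4 and 9.83 CPM in control lungs. At P0, Vegfb was 13.1, 14.3, 9.62 and 13.7 CPM in CKO lungs, against 12.5, 12.1, 10.3 and 10.6 CPM in control lungs. At P3, Vegfb was 9.74, 12, 12 and 10.7 CPM in CKO lungs, against 9.29, 7.27, 5.22 and 8.92 CPM in control lungs. All 4 P3 CKO libraries were above all 4 P3 control libraries, and the E16 and P0 ranges overlapped. For P3 over P0 Vegfb was -0.21 ± 0.22 in CKO lungs (adjusted p = 0.534) and -0.57 ± 0.22 in control lungs (adjusted p = 0.0899, edgeR). Of the 9 genes, 0 were called in control lungs for P3 over P0 by edgeR, DESeq2 or limma-voom, 2 (Vegfb and Kdr) had an unadjusted p under 0.05, as did 28.5% of all genes, and 11.3% of all genes were called. In CKO lungs Nrp2 (0.61, adjusted p = 0.0237) and Vegfc (-0.68, adjusted p = 0.0354) were called for P3 over P0 without P0 CKO replicate 2, as were 14.9% of all genes. There 3 (Angpt1, Kdr and Nrp2) had an unadjusted p under 0.05 with all libraries, as did 30.5% of all genes.

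**Figure D3:**
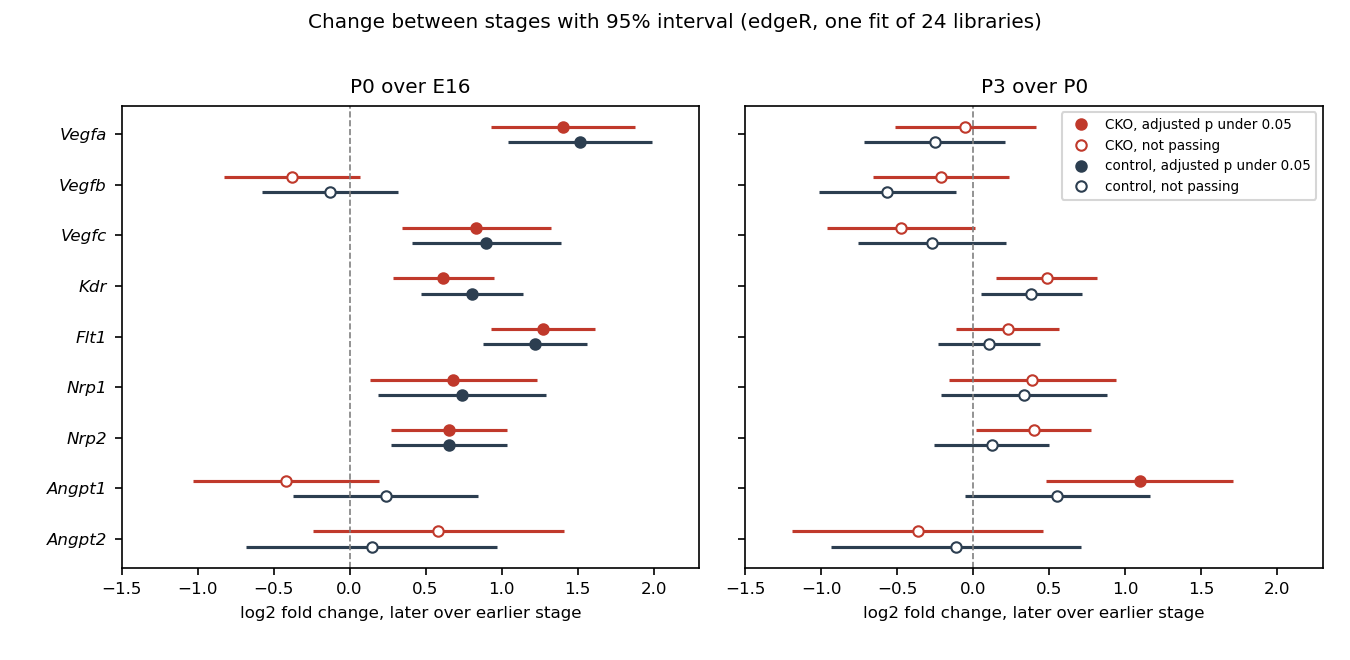
Log2 changes of the 9 genes with 95% intervals, P0 over E16 (left) and P3 over P0 (right), CKO above control for each gene; filled dots passed an adjusted p of 0.05. Both genotypes have the same 6 filled genes at P0 over E16, and Angpt1 in CKO lungs is the only filled one at P3 over P0.

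Between genotypes, none of the 9 genes was called at any stage. At E16, 0 of 9 were called by edgeR, DESeq2 or limma-voom and 0 had an unadjusted p under 0.05, with 0.0181% of 16606 genes called by edgeR and 10.5% under that p. At P0, 0 of 9 were called by any of these tools and 1 (Kdr) had an unadjusted p under 0.05, with 0.0407% of 17198 genes called by edgeR and 6.44% under that p. At P3, 0 of 9 were called by any of these tools and 4 (Vegfb, Angpt1, Vegfc and Nrp1) had an unadjusted p under 0.05, with 0.0117% of 17113 genes called by edgeR and 15.4% under that p. Over all genes with an adjusted p, DESeq2 called 2.11% at E16, 1.12% at P0 and 4.16% at P3, and limma-voom called 3, 10 and 2 genes.

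The Kdr change, CKO over control, was -0.37 ± 0.16 log2 at P0, with an interval of -0.73 to -0.01, an unadjusted p of 0.046 and an adjusted p of 0.772 (edgeR). Its groups did not overlap, which held for 4.57% of all genes at P0. It was -0.15 ± 0.18 at E16 (adjusted p = 0.827) and -0.26 ± 0.13 at P3 (adjusted p = 0.366). With the Xist level as a covariate, at a stage where 4 CKO and 1 control libraries were high in Xist, the E16 changes were -0.46 for Kdr, -0.77 for Nrp1, -0.35 for Nrp2 and 0.75 for Vegfb, none of them called. Without P3 CKO replicate 1, whose 739 CPM were the highest of all Kdr values, the P3 change was -0.39 and called (adjusted p = 0.0393). That fit called 9.36% of all genes, against the 0.0117% called with all 8 libraries. Over 12 other settings the P3 change of Kdr had adjusted p between 0.172 and 0.82.

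Angpt1 had the largest change at P0 in size, -0.80 ± 0.44 log2 with an interval of -1.79 to 0.18 (adjusted p = 0.874, edgeR). Leaving out both libraries high in thymus markers gave -0.66 (adjusted p = 0.572), and leaving out single libraries gave -1.14 to -0.52. At E16 the Angpt1 change was -0.12 ± 0.13, and at P3 it was -0.25 ± 0.10 with an unadjusted p of 0.0229 and an adjusted p of 0.255.

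Vegfb went the other way, at 0.44 ± 0.24 log2 at E16, 0.16 ± 0.20 at P0 and 0.52 ± 0.18 at P3, where the groups did not overlap (7.46% of all genes at P3) and the adjusted p was 0.225 by edgeR. Nrp1 groups also did not overlap at P3, at -0.17 ± 0.07 (adjusted p = 0.299). Nrp2 changed by -0.14 ± 0.17 at E16, -0.16 ± 0.23 at P0 and 0.12 ± 0.07 at P3, and Angpt2 by -0.03 ± 0.16, 0.36 ± 0.55 and 0.13 ± 0.24, none of them called. Of the 9 genes, 6 had a negative change at all 3 stages (Vegfa, Vegfc, Kdr, Flt1, Nrp1 and Angpt1), against 30.2% of the 15948 genes tested at all stages, and 1 (Vegfb) had a positive one, against 27.3%. Over the 9 genes the median change in log2 was -0.14 (E16), -0.18 (P0) and -0.13 (P3), beside -0.01, -0.03 and -0.01 over all genes.

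**Figure D4:**
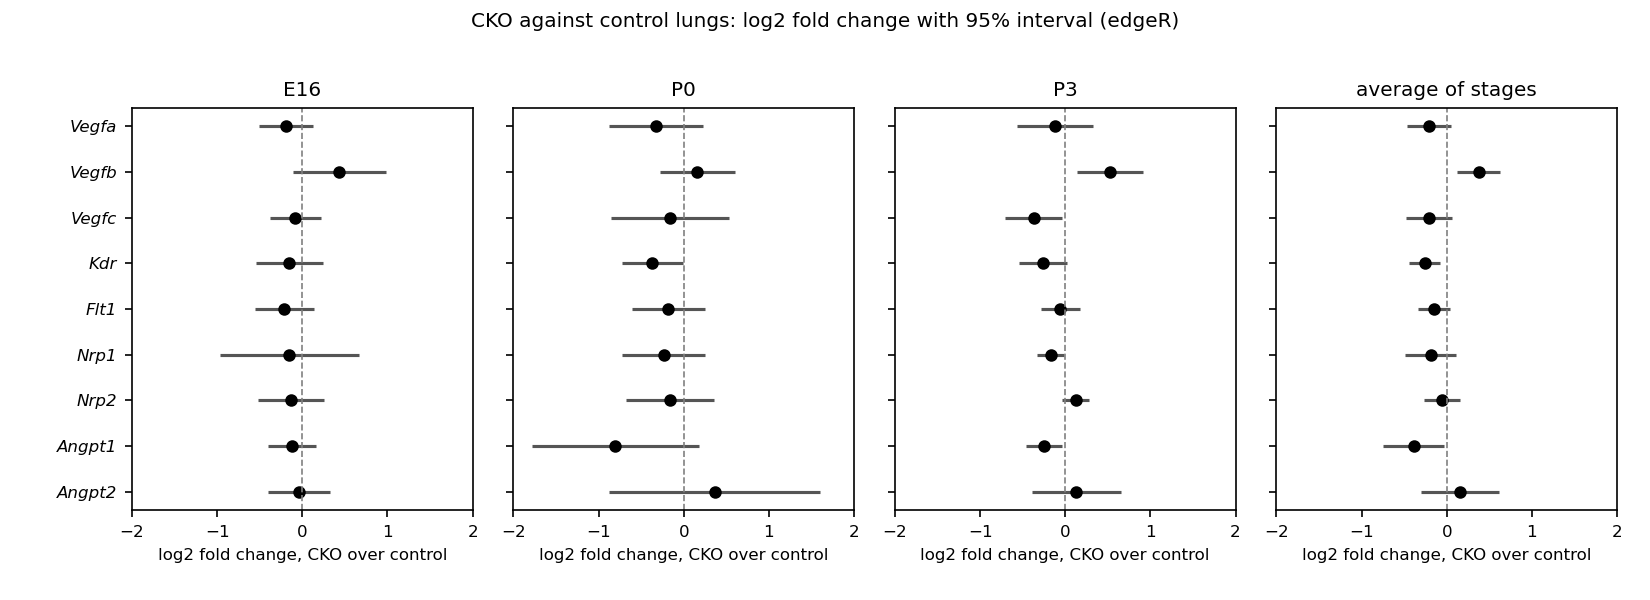
Log2 fold changes of the 9 genes, CKO over control, with 95% intervals at E16, P0, P3 and averaged over the stages. Most points lie left of 0, Vegfb lies right of 0 in each panel, and none was called.

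Averaged over the stages, with stage as a term in a fit of all 24 libraries, 0 of 9 genes were called by edgeR or limma-voom, while 8.38% of all genes were. DESeq2 called 2 (Kdr and Vegfb) and 12.1% of all genes, and 3 (Vegfb, Kdr and Angpt1) had an unadjusted p under 0.05 by edgeR, as did 22% of all genes. The average change was 0.37 ± 0.12 log2 for Vegfb (adjusted p = 0.0606), -0.26 ± 0.09 for Kdr (adjusted p = 0.0769) and -0.39 ± 0.17 for Angpt1 (adjusted p = 0.186). Those of the other 6 genes were -0.21 ± 0.12 for Vegfa, -0.20 ± 0.13 for Vegfc, -0.15 ± 0.09 for Flt1, -0.19 ± 0.15 for Nrp1, -0.06 ± 0.10 for Nrp2 and 0.16 ± 0.22 for Angpt2, with adjusted p of 0.336 or more.

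The labels give each lung an identifier whose prefix recurs within a stage, without saying what it marks. With this prefix as a block, all 3 of these genes were called in the average, Angpt1 at -0.43 (adjusted p = 0.0255), Kdr at -0.28 (adjusted p = 0.0319) and Vegfb at 0.35 log2 (adjusted p = 0.0365), as were 15.6% of all genes. With the Xist level as a covariate, Angpt1 at -0.53 (adjusted p = 0.0382) and Kdr at -0.30 (adjusted p = 0.0279) were called, as were 10.4% of all genes. Kdr was also called without E16 control replicate 2 or P3 CKO replicate 1, and Vegfb without E16 CKO replicate 4, P0 control replicate 1 or P0 CKO replicate 3. The main fit of the average called 8.38% of all genes, and the shares in these left-out fits are not given here. Over 12 other settings the adjusted p of the average ranged from 0.0255 to 0.291 for Angpt1, from 0.0279 to 0.121 for Kdr and from 0.0289 to 0.0969 for Vegfb. Within the 9 prefixes, Angpt1 was lower in CKO than in control lungs in 9, Kdr was lower in 8 and Vegfb was higher in 8. Vegfa, Vegfc and Nrp1 were lower in 7, Flt1 in 6, Nrp2 in 4 and Angpt2 in 3. These signs come from the same libraries as the average, and the share of all genes with such counts was not computed. At P0, where each of 4 prefixes holds 1 lung of each genotype, the CKO minus control differences of Angpt1 were -0.75, -0.99, -1.82 and -0.24 log2 CPM and those of Kdr were -0.28, -0.56, -0.04 and -0.58. Angpt1 differences ran from -1.82 to -0.10 over all 9 prefixes, and those of Nrp1 from -1.02 to 1.09. Prefixes with 1 lung of each genotype have no replicate of their own.

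**Figure D5:**
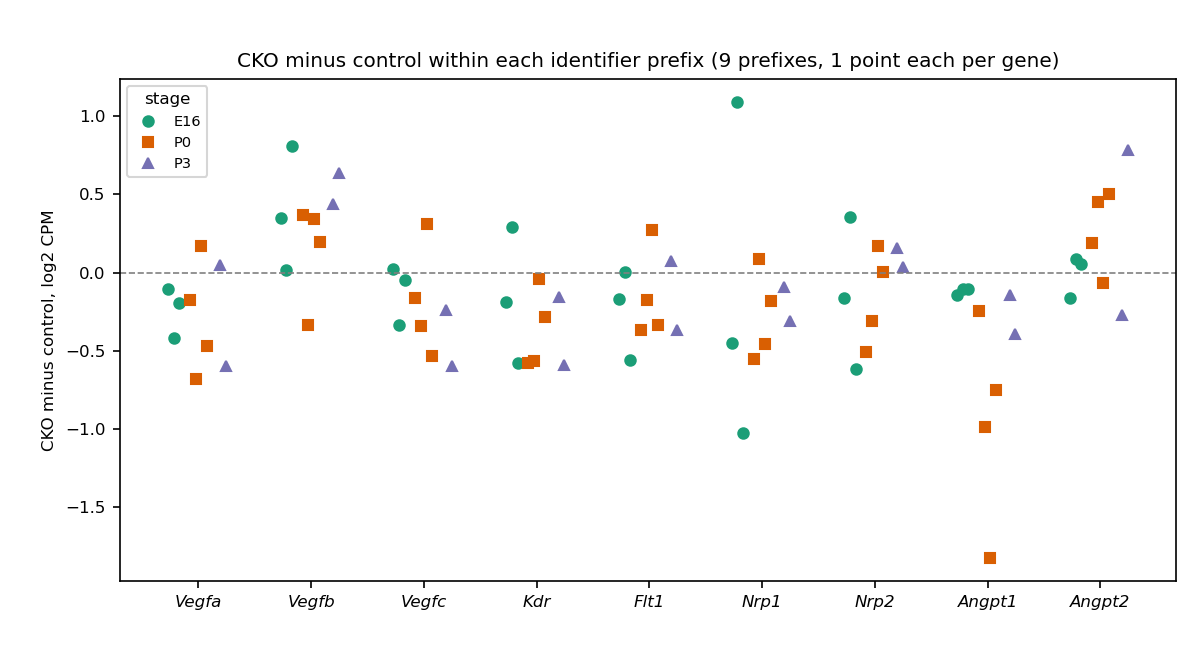
CKO minus control differences in log2 CPM within each of 9 identifier prefixes, by gene and stage. All 9 Angpt1 points lie below 0, the lowest of them at P0, and 8 of 9 Vegfb points lie above 0.

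No difference of the genotype change between stages was called. For P0 minus E16, P3 minus P0 and P3 minus E16, 0 of the 9 genes were called by edgeR, DESeq2 or limma-voom, 0 had an unadjusted p under 0.05, and 0% of the 18415 genes were called by edgeR (16, 3 and 9 genes by DESeq2). The differences ran from -0.65 (Angpt1) to 0.44 (Angpt2) log2 for P0 minus E16, from -0.25 (Angpt2) to 0.54 (Angpt1) for P3 minus P0, and from -0.27 (Vegfc) to 0.28 (Nrp2) for P3 minus E16. The 95% interval of the Angpt1 difference for P0 minus E16 was -1.52 to 0.21.

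Most endothelial, pericyte, alveolar fibroblast and alveolar type 1 markers had changes below 0 between genotypes. Of all genes, 48.1% had a change above 0 at E16, 46.7% at P0 and 47.4% at P3. In the average of stages 3% of all genes were called lower. In whole lungs, fewer cells of a type and less RNA per cell cannot be told apart. Of 15 pan-endothelial genes, 14 had a negative change at E16, 14 at P0 and 15 at P3, with median changes of -0.11, -0.15 and -0.22 log2, and 1 was called lower in the average of stages. The summed endothelial level was 2342 to 3816 CPM in P3 CKO lungs and 3227 to 3732 CPM in P3 control lungs, and no marker was at 0. Of the P3 CKO libraries only replicate 1 was above the lowest control library. Of 12 pericyte genes, 12 were below 0 at E16, 10 at P0 and 8 at P3, and 2 were called lower in the average. Of 8 smooth muscle genes, 7, 3 and 4 were below 0. Of 11 alveolar fibroblast genes, 11, 9 and 9 were below 0, with a median of -0.38 and 7 called lower in the average, and their summed level at P0 was 3505 to 4690 CPM in CKO lungs and 3772 to 7113 CPM in control lungs. All 10 alveolar type 1 genes, markers of the cells that make Vegfa, were below 0 at E16, 9 at P0 and 10 at P3, with median changes of -0.25, -0.30 and -0.32. The part of these cell types in the changes of Kdr, Angpt1 or Vegfa was not tested.

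Markers of several cell types rose with the VEGF genes between E16 and P0. Of all genes, 24.7% were called higher and 20.6% lower in CKO lungs, and 25.3% and 22.3% in control lungs. At P0 over E16, 11 of 15 endothelial genes were called higher in CKO and 12 in control lungs, with medians of 0.83 and 0.93 log2. Of 10 alveolar type 1 genes, 9 were called higher in each genotype, with medians of 1.80 and 1.70, and so were 9 of 10 alveolar type 2 genes, with medians of 1.89 and 1.87. Alveolar fibroblast (6 of 11 in CKO, 7 in control lungs), pericyte (4 and 7 of 12) and smooth muscle genes (5 and 3 of 8) were called higher too. Among these lists, pericyte genes in CKO lungs and smooth muscle genes in control lungs were nearest to the share of all genes. Of 16 hypoxia response genes, 3 were called higher and 4 lower in CKO lungs, and 2 higher and 7 lower in control lungs. Thymus markers were also called higher (10 of 10 tested in each genotype), with the 2 libraries named above far over the rest. Without those libraries the 6 VEGF calls in each genotype were kept.

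Of 29 other genes of the pathway, 28 passed the filter, Angpt4 being the exception. At E16, P0 and P3, 0 of 28 were called between genotypes by edgeR. An unadjusted p under 0.05 was found for 0, 2 and 5 of them, beside 10.5%, 6.44% and 15.4% of all genes. At E16 the smallest p belonged to Egln1 (0.19 ± 0.09 log2, unadjusted p = 0.0531), the oxygen sensor, Esm1 (0.51 ± 0.23, 0.0533), a secreted endothelial product induced by VEGF, and Vhl (0.16 ± 0.08, 0.0744), which marks hypoxia-inducible factors for destruction. At P0 they were Plxna3 (0.93 ± 0.19, 0.000541), a semaphorin receptor that pairs with neuropilins, Rcan1 (0.53 ± 0.23, 0.0478), a calcineurin regulator, and Flt4 (-0.63 ± 0.30, 0.0668), the receptor of VEGF-C. At P3 they were Plxna3 (0.59 ± 0.14, 0.00114), Sema3c (-0.24 ± 0.08, 0.01), a class 3 semaphorin, and Tek (-0.36 ± 0.12, 0.0112).

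In the average of stages 3 of the 28 were called, beside 8.38% of all genes. Plxna3 was higher by 0.58 ± 0.10 log2 in CKO lungs (edgeR adjusted p = 0.000946). At P0 it stood at 32.3 ± 5.71 CPM in CKO and 17.0 ± 2.28 CPM in control lungs, and at P3 at 34.2 ± 6.72 and 22.5 ± 1.28 CPM (SD, n = 4 each). Its groups did not overlap at either stage. No overlap held for 4.57% of all genes at P0 and 7.46% at P3. Esm1 was higher by 0.54 ± 0.15 (adjusted p = 0.0318), at 6.02 ± 1.19 CPM in CKO and 3.92 ± 1.48 CPM in control lungs at P0. Tek, the angiopoietin receptor, was lower, at -0.31 ± 0.09 (adjusted p = 0.0334), with 215 ± 36.8 CPM in CKO and 272 ± 19.0 CPM in control lungs at P3. Tek and its ligand gene Angpt1 both had changes below 0 at each stage, as did 30.2% of the genes tested at all stages. The other receptors Flt4 (-0.37 ± 0.14, adjusted p = 0.108) and Tie1 (-0.27 ± 0.14, adjusted p = 0.246), named after their values were seen, were not called.

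At P0 over E16, 13 of the 28 were called higher and 2 lower in CKO lungs, where 24.7% of all genes were called higher. In control lungs 11 of the 28 were called higher and 2 lower, beside 25.3% of all genes called higher. Among those named after their values were seen, Epas1, the hypoxia-inducible factor of endothelium and alveolar cells, rose by 2.63 ± 0.28 log2 in CKO and 2.83 ± 0.28 in control lungs, Ptprb, the phosphatase that restrains TEK, by 1.80 ± 0.24 and 1.56 ± 0.24, and Apln, a tip cell peptide, by 1.52 ± 0.22 and 1.54 ± 0.22. Of the 5 genes of oxygen sensing, which include Epas1, 4 had changes below 0 in each genotype, and 1 was called lower. Tek rose by 0.77 ± 0.16 in CKO and 0.91 ± 0.16 in control lungs (edgeR adjusted p = 0.000534 and 9.94e-05). Plxna3 fell, at -0.58 ± 0.15 in CKO and -1.31 ± 0.15 in control lungs (adjusted p = 0.00298 and 5.16e-07).

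The genes whose log2 CPM ran most alike with each of the 9 over the 24 libraries, by Pearson correlation, are given as a description. They were sought among genes with a mean of at least 1 log2 CPM, leaving out the 9 themselves and predicted loci. Libraries of a stage share that stage. Vegfa ran with Prx (0.976), in the aerocyte capillary list, Ager (0.975), in the alveolar type 1 list, and Epas1 (0.971). Flt1 ran with Limch1 (0.98), in the alveolar fibroblast list, and the basement membrane collagen genes Col4a4 (0.98) and Col4a3 (0.977). Kdr ran with Lrrc8b (0.959), Prdm1 (0.953) and Zbtb4 (0.952), Nrp1 with F5 (0.968), Vwa8 (0.957) and Fndc3b (0.954), and Nrp2 with Sort1 (0.989), Vcl (0.947) and Dennd5a (0.946). Angpt1 ran with Sh3bgrl (0.906), Fggy (0.904) and Fibin (0.899), the last in the aerocyte capillary list. Vegfc ran with Capn2 (0.917), Cers2 (0.911) and Cldn18 (0.907), and Vegfb with Gcat (0.906), Abcf1 (0.894) and Tkt (0.892). Angpt2 had the weakest likeness of the 9, with Tsc22d2 (0.853), Rnd3 (0.833) and Suco (0.832).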

How the data were processed

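RNA from whole lungs was made into libraries with an Illumina TruSeq RNA kit, per the labels' protocols. The submitters' processing notes name mm10, edgeR, RSEM 1.3.0 and STAR 2.5.3a and give no roles. The authors deposited a table of expected counts, all of them whole numbers, for 51912 genes in 24 libraries (27.02 to 36.35 M counts each), so counting error is small for all 9 genes. The 9 genes, the 29 other pathway genes, the 14 marker lists (136 of 139 of all list genes in the table) and the tests were chosen with earlier results of these data known.

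The genotypes were compared with edgeR 4.0.16 (R 4.3.3) in the 8 libraries of a stage, and in fits of all 24 libraries for the average of stages, the changes between stages and their differences. Fits used filterByExpr, TMM scaling (factors 0.892 to 1.05), robust dispersions and the quasi-likelihood test, with Benjamini-Hochberg adjustment over all genes tested and calls at 0.05. SE is the change divided by the square root of F. CPM use TMM-scaled library sizes, and levels per kb divide by merged exons of the GENCODE annotation of mm10. Named were all 9 genes, of the other pathway genes up to 3 per direction called per genotype comparison or, with none, the 3 with the smallest p, and 3 genes most alike each of the 9. The fits were tested on simulated counts. Alternatives were other scalings, filters, DESeq2 1.42.0, limma-voom (limma 3.58.1), non-robust dispersions, erythroid genes removed, blocks, an Xist covariate, other library subsets and each library left out. Replicate pairs differed by a chi-square of at least 20.3 per gene, so no 2 libraries agreed within sampling noise.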

Additional observations from a re-analysis of the deposited data

Results flagged for a closer look

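In 4 of 54 sets of 4 libraries (9 genes in 6 groups) a single library stood apart from the other 3 by more than the 95% limit of Dixon's test, and chance gives about 1 in 20. Flt1 was 99.9 CPM in P0 control replicate 3, below the other 3 control libraries (171 to 178 CPM), and this library is also the one high in thymus markers, whose part in the value was not tested. Nrp2 was 243 CPM in P0 CKO replicate 2, above the other 3 CKO libraries (145 to 157 CPM). Angpt2 was 32.7 CPM in the same P0 CKO replicate 2, against 6.69 to 10.6 CPM in the other CKO libraries. Angpt2 was 23.1 CPM in P0 control replicate 1, against 7.00 to 9.20 CPM in the other control libraries. The libraries with high Angpt2 share the identifier prefix 9903.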

How the results depend on the processing

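Of the alternative values for single genes, 2219 kept direction and side of the threshold, 30 turned sign, 30 gained a call and 16 lost one. The 6 genes higher at P0 over E16 became 5 or 6 in each genotype under the settings run and with each library left out. The counts of 0 at E16 and P0 between genotypes, for P3 over P0 in control lungs and for differences between stages held under the settings and left-out libraries run.

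In the average of stages 2 genes were called by DESeq2, 3 with the identifier prefix as a block and 2 with Xist as a covariate. For P3 over P0 in CKO lungs 2 were called with median-of-ratios scaling, with library size only, with at least 1 CPM in 4 libraries, by DESeq2, with non-robust dispersions and with erythroid genes removed, and 0 with the 2 groups fitted alone. The main fit called 13% of all genes there, and the shares under these settings are not given here. With a library left out, the count ran from 0 to 1 at P3, from 0 to 1 in the average and from 0 to 3 for P3 over P0 in CKO lungs. The cause was not tested.

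Of the 30 turned signs, 16 were of Angpt2, whose changes at P0 (0.36), for P0 over E16 in CKO lungs (0.58) and for P3 over P0 in CKO lungs (-0.37) turned without P0 CKO replicate 2. With the Xist covariate at E16, Angpt2 was 0.057 and Vegfc 0.101. By limma-voom in control lungs, Angpt2 was -0.034 for P0 over E16 and 0.074 for P3 over P0. Without both libraries high in thymus markers, P3 over P0 in control lungs was -0.058 for Flt1, -0.034 for Nrp2 and -0.299 for Angpt2; the P0 genotype change was -0.292 for Flt1, -0.302 for Vegfc and 0.099 for Vegfb; P0 over E16 in control lungs was 0.384 for Angpt1, 0.33 for Angpt2 and -0.083 for Vegfb; and P3 over P0 in CKO lungs was -0.611 for Angpt2 and 0.252 for Nrp1. Vegfb for P0 over E16 in CKO lungs was -0.539 and called (adjusted p = 0.0481) without E16 CKO replicate 4. With a library left out, genotype changes ran from -0.184 to 0.037 (Angpt2), -0.43 to 0.102 (Nrp1) and -0.138 to 0.006 (Vegfc) at E16, from -0.355 to 0.921 (Angpt2) and -0.318 to 0.027 (Vegfc) at P0, from -0.071 to 0.307 (Angpt2) and -0.155 to 0.022 (Flt1) at P3, and from -0.07 to 0.314 (Angpt2) in the average. For P0 over E16 they ran from -0.101 to 0.384 (Angpt1) and -0.458 to 0.33 (Angpt2) in control lungs, and from -0.134 to 0.828 (Angpt2) in CKO lungs. For P3 over P0 they ran from -0.299 to 0.466 (Angpt2), -0.058 to 0.201 (Flt1) and -0.034 to 0.266 (Nrp2) in control lungs, and from -0.612 to 0.35 (Angpt2) and -0.315 to 0.088 (Vegfa) in CKO lungs. The difference of the Angpt2 genotype change ran from -0.28 to 0.996 for P0 minus E16 and from -0.818 to 0.465 for P3 minus P0.

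Replicate numbers did not pair the lungs: deviations of same-numbered CKO and control lungs correlated at -0.323 to -0.053 at E16, -0.395 to 0.604 at P0 and -0.213 to 0.104 at P3. Lungs of the same identifier prefix correlated at 0.018 to 0.604 at P0, against -0.395 to 0.13 for other P0 pairs, at -0.115 to 0.312 against -0.436 to 0.377 at E16 and at -0.11 to 0.104 against -0.213 to 0.158 at P3. With the replicate block, 0 of the 9 genes were called at E16, P0, P3 or in the average. No replicate block was fitted between stages, since no animal has 2 stages. The lowest count of any of the 9 genes in a library was 154, for Vegfb in P3 control replicate 3.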

Other observations

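Capillary, lymphatic and smooth muscle markers give further context for the vessel genes. In the average of stages the 5 general capillary genes all had changes below 0 in CKO over control lungs, with a median of -0.31 log2 and 2 called lower, and the 5 aerocyte genes, markers of the large gas exchange capillary cells, had a median of -0.39 and 1 called lower. Of 5 lymphatic genes, 4 were below 0 and 1 was called lower (median -0.11). Of 8 smooth muscle genes, 5 were above 0 and 1 was called higher (median 0.05). Of 16 hypoxia response genes, 10 were above 0 and 2 were called higher (median 0.09), while 1 of 10 alveolar type 1 genes was called lower (median -0.26) and the 10 alveolar type 2 genes were all below 0 (median -0.23). The median change in the average was -0.15 log2 for the erythroid list, -0.27 for thymus, 0.30 for cartilage and 0.52 for neuronal markers. These calls are adjusted p under 0.05 by edgeR, where 3% of all genes were called lower and 5.38% higher, 8.38% in either direction.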
